A study of Mus musculus with 8 samples.

Results

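The genes described here are 7 members of the family of WAP-domain protease inhibitors, *Wfdc1*, *Wfdc2*, *Wfdc3*, *Wfdc8*, *Wfdc12*, *Wfdc15b* and *Slpi*, among the 25965 genes measured in mouse lung. They were picked by symbol with their values in these libraries already known, so their own differences are given as a description. No p-value of a member is printed, and where members past a threshold are counted, nothing is read from the count. Total RNA of whole lungs was sequenced from *Wfdc2*+/+ mice and from *Wfdc2* GFP/GFP mice before birth, on embryonic day E18.5, and after birth, on postnatal day P1.5, with 2 libraries in each of the 4 groups. The GFP allele carries an IRES-EGFP cassette with its own polyadenylation signal in place of a part of exon 1 and all of exon 2 of *Wfdc2*. It was made by homologous recombination in TT2 embryonic stem cells with 129-derived arms, and the drug resistance gene was removed by crossing with CAG-Cre mice. No treatment was given to any group, the labels name no strain, and GFP was not measured in the table. The libraries held between 19457654 and 37209349 reads by the totals behind the deposited values. In every group replicate 1 had *Xist* reads (14602, 90980, 4246 and 4121) where replicate 2 had at most 13, and replicate 2 had reads of the Y-linked gene *Ddx3y* (2175, 1042, 1139 and 972) where replicate 1 had at most 3, so the 2 libraries of a group differed in these sex-linked transcripts. The labels do not say what a replicate number marks. An exact permutation test of 2 against 2 cannot go below p = 0.33, and the p-values given below for other genes measure only the spread between these libraries. The lists of other genes below were also chosen with earlier results of these data known. Their counts and p-values are given as a description.

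WAP domains are small secreted folds in which disulfide bonds join 8 conserved cysteines. Several proteins of the family block serine proteases, and some kill bacteria. *Slpi*, the secretory leukocyte protease inhibitor, is released by airway epithelium and blocks neutrophil elastase and cathepsin G, while *Wfdc2* is a secreted product of epithelium in the conducting airways. In mouse most of the family lies in a cluster on chromosome 2.

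The domain was read from the coding sequences to show what the members share and what the GFP allele removes. In the GENCODE M21 transcript with the longest coding sequence of each gene, 8 in-frame cysteine codons in the spacing of the WAP core were found 2 times in *Wfdc2*, *Slpi*, *Wfdc3* and *Wfdc8* and 1 time in *Wfdc1*, *Wfdc12* and *Wfdc15b*, and every core lay inside a single exon. A core of each member is shown 5′ to 3′, from the first to the last cysteine codon, with the cysteine codons in capitals (GRCm38/mm10, strand in brackets). Both cores are given for *Wfdc2*, because the first lies in the exon that the GFP allele lacks, and for *Slpi*, whose second domain is the one that binds elastase.
*Wfdc2* core 1, exon 2, chr2:164563334-164563438 (+): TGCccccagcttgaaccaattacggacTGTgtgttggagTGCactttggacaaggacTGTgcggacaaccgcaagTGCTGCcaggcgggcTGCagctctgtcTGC
*Wfdc2* core 2, exon 4, chr2:164565806-164565919 (+): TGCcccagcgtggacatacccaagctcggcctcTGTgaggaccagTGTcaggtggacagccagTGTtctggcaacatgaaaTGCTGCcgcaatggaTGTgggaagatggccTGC
*Slpi* core 1, exon 2, chr2:164355479-164355592 (-): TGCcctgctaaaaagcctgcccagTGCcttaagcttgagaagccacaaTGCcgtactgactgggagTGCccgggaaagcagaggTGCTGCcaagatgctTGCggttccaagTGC
*Slpi* core 2, exon 3, chr2:164354892-164355005 (-): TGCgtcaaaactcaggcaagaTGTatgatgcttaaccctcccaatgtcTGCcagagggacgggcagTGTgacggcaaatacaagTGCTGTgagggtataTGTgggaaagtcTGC
*Wfdc1* core 1, exon 2, chr8:119679316-119679432 (+): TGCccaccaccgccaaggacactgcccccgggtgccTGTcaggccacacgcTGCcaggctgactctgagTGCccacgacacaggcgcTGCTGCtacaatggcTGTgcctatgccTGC
*Wfdc3* core 1, exon 2, chr2:164734199-164734297 (-): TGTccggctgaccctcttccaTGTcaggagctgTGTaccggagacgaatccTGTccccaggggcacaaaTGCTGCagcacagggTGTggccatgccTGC
*Wfdc8* core 1, exon 4, chr2:164605782-164605892 (-): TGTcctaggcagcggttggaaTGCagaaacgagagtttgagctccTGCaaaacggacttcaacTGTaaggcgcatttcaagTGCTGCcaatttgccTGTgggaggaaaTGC
*Wfdc12* core 1, exon 2, chr2:164190165-164190275 (-): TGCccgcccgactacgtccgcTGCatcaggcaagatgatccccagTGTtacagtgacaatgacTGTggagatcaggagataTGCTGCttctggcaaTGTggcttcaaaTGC
*Wfdc15b* core 1, exon 3, chr2:164215141-164215251 (-): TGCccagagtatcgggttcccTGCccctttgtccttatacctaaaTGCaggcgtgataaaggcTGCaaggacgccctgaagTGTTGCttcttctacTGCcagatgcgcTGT
In all 9 sequences, 5 codons separate the third cysteine from the fourth and the fourth from the fifth, the fifth and sixth are adjacent, and 3 codons lie between the sixth and the seventh. They differ between the second cysteine and the third, with 7 codons in *Slpi* core 1, *Wfdc8* core 1, *Wfdc12* and *Wfdc15b*, 8 in *Slpi* core 2, 4 in *Wfdc1*, and 3 in both *Wfdc2* cores and in *Wfdc3* core 1. The cores run from 33 codons in *Wfdc3* to 39 in *Wfdc1*.

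*Wfdc1* lies alone on chromosome 8 (119666523 to 119688222, + strand). The other members lie on chromosome 2, in the order *Wfdc12* (164189231 to 164190608, - strand), *Wfdc15b* (164214454 to 164221660, -), *Slpi* (164354070 to 164389095, -), *Wfdc2* (164562413 to 164568510, +), *Wfdc8* (164596458 to 164613626, -) and *Wfdc3* (164731180 to 164745931, -). All 7 are annotated as protein coding. *Wfdc12* lies inside *A730032A03Rik* on the opposite strand, and *Wfdc8* overlaps *Wfdc6b* on the opposite strand by 105 bp, and since the strand setting of the counting is not stated, their reads may be shared.

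The level of each member was set per kilobase of exon, as RPM (reads per 1000000 reads of the library) per kb, because the deposited values were divided by the whole span of the gene with introns, which for *Slpi* is 35026 bp against 1180 bp of exon. In E18.5 *Wfdc2*+/+ lungs *Wfdc2* was the most abundant member at 226 ± 30.1 RPM per kb (SD, n = 2), followed by *Wfdc1* at 24.2 ± 3.83, *Slpi* at 6.04 ± 0.681 and *Wfdc3* at 0.771 ± 0.176. *Wfdc15b*, *Wfdc8* and *Wfdc12* were at 0.14 ± 0.198, 0.0907 ± 0.0365 and 0.0582 ± 0.0237 RPM per kb, and these 3 did not differ beyond their spread. At P1.5 the first place in *Wfdc2*+/+ lungs was again that of *Wfdc2*, at 894 ± 613 RPM per kb (SD, n = 2), and *Wfdc1* at 83.9 ± 69.3 and *Slpi* at 43.2 ± 42.9 did not differ beyond their spread. In *Wfdc2* GFP/GFP lungs the order of the 2 genes at the top was *Wfdc1*, at 18.6 ± 12.5, then *Slpi*, at 8.45 ± 6.82, at E18.5, which did not differ beyond their spread, and *Slpi*, at 193 ± 29.9, then *Wfdc1*, at 84.7 ± 6.03, at P1.5. *Wfdc3* came next in both, at 1.05 ± 0.278 and 1.47 ± 0.477 RPM per kb, and the rest were below 0.3. The order of the 4 most abundant members in *Wfdc2*+/+ lungs and of the 3 in *Wfdc2* GFP/GFP lungs was the same with the deposited length.

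**Figure D1:**
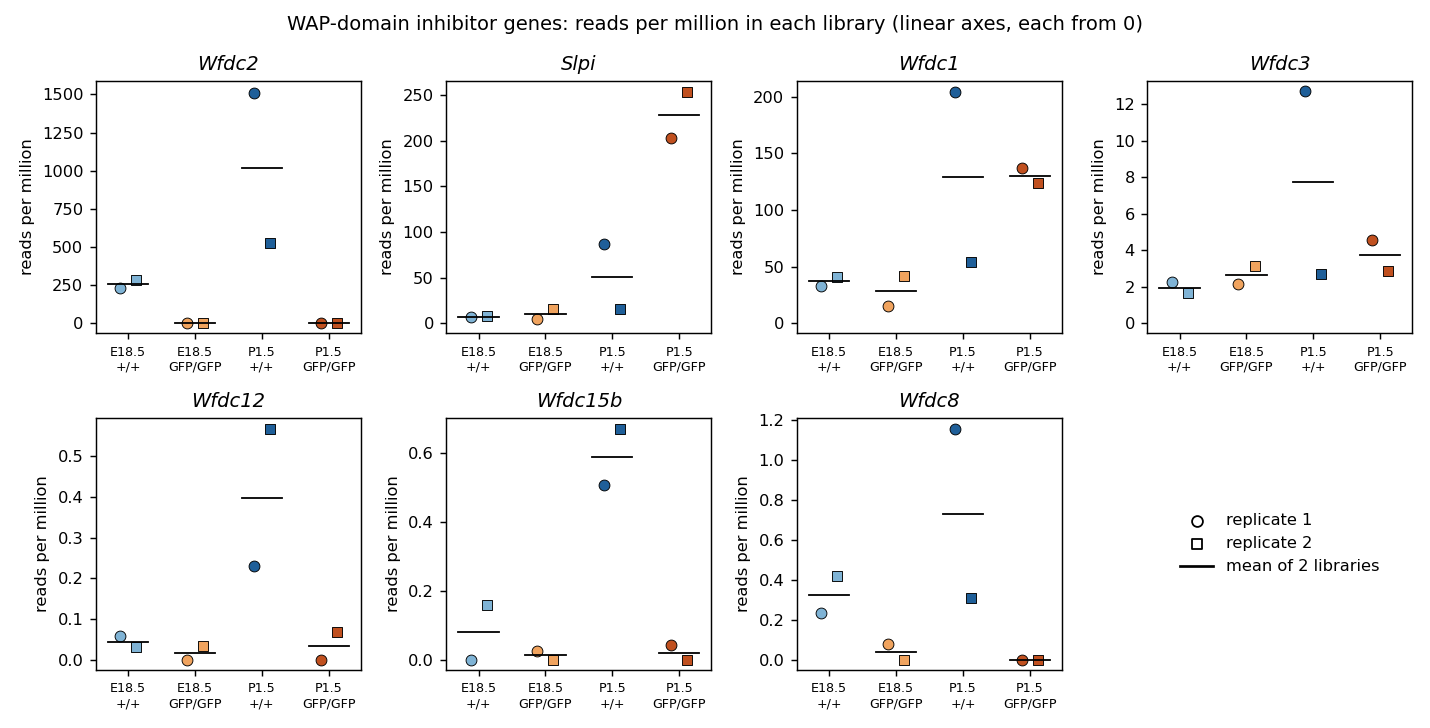
RPM of the 7 members in each of the 8 libraries, with a panel for each gene, a linear axis from 0, circles for replicate 1, squares for replicate 2 and lines for the mean of the 2 libraries of a group. *Slpi* stands at 203 and 253 RPM in the P1.5 *Wfdc2* GFP/GFP libraries, while *Wfdc2* is near 0 in every GFP/GFP library.

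*Wfdc2* reads were nearly gone from *Wfdc2* GFP/GFP lungs at both stages. The *Wfdc2*+/+ libraries held 8038 and 8791 reads at E18.5 and 32845 and 10212 at P1.5, or 233, 282, 1513 and 525 RPM. The *Wfdc2* GFP/GFP libraries held 0 and 1 reads at E18.5 and 12 and 0 at P1.5. Over both libraries of a group, RPM were 4568-fold lower at P1.5 (95% exact interval 2615 to 8842) and 17049-fold lower at E18.5 (3059.5 to 673432), intervals that cover counting error only. The E18.5 fold rests on 1 read in *Wfdc2* GFP/GFP and is known only within its interval. The gene is given first as the check of the labels, and every library matched its genotype. The exons from which the 12 reads of P1.5 replicate 1 came were not analysed here, since the table gives 1 value for each gene.

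*Slpi* was the member that stood higher without *Wfdc2* after birth. At P1.5 it had 1886 and 296 reads in the *Wfdc2*+/+ libraries, or 86.9 and 15.2 RPM, while the *Wfdc2* GFP/GFP libraries had 4708 and 7406 reads, or 203 and 253 RPM. Each *Wfdc2* GFP/GFP library exceeded each *Wfdc2*+/+ library, and replicate 2 of *Wfdc2*+/+ was the lowest of the 4. The fitted log2 difference was 2.64, with a standard error of 0.857. It was 1.38 without *Wfdc2*+/+ replicate 2 and 3.9 without *Wfdc2*+/+ replicate 1. At E18.5 the groups overlapped, with 226 and 240 reads in *Wfdc2*+/+ (6.56 and 7.7 RPM) and 159 and 458 in *Wfdc2* GFP/GFP (4.27 and 15.7 RPM). There the log2 difference was 0.2 (standard error 0.857), and it was -0.01 after centring each library on its median, 1.14 without *Wfdc2* GFP/GFP replicate 1 and -0.73 without *Wfdc2* GFP/GFP replicate 2. From E18.5 to P1.5, *Slpi* differed by 2.35 in *Wfdc2*+/+ lungs and by 4.79 in *Wfdc2* GFP/GFP lungs on the log2 scale (standard error 0.857 for each), and in both genotypes both P1.5 libraries lay above both E18.5 libraries. The value in *Wfdc2*+/+ was 1.1 without P1.5 replicate 1 and 3.61 without P1.5 replicate 2, and that in *Wfdc2* GFP/GFP was 3.86 without E18.5 replicate 1 and 5.73 without E18.5 replicate 2.

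*Wfdc1*, which encodes a secreted protein first known from prostate stroma, did not separate the genotypes. Its P1.5 reads were 4441 and 1046 in *Wfdc2*+/+ (205 and 53.8 RPM) and 3170 and 3620 in *Wfdc2* GFP/GFP (137 and 124 RPM), so that the 2 GFP/GFP libraries lay between the 2 *Wfdc2*+/+ libraries. The log2 difference between genotypes was 0.31 with a standard error of 0.677, and it was -0.65 without *Wfdc2*+/+ replicate 2 and 1.28 without *Wfdc2*+/+ replicate 1. At E18.5 there were 1137 and 1289 reads in *Wfdc2*+/+ (33 and 41.4 RPM) and 559 and 1233 in *Wfdc2* GFP/GFP (15 and 42.2 RPM), with a log2 difference of -0.55 and overlapping groups. Here too the sign turned, to 0.19 without *Wfdc2* GFP/GFP replicate 1, and it was -1.3 without *Wfdc2* GFP/GFP replicate 2. Between the stages all P1.5 libraries of a genotype lay above its E18.5 libraries, by 1.5 in *Wfdc2*+/+ and by 2.37 in *Wfdc2* GFP/GFP on the log2 scale. These were 0.54 and 2.47 without P1.5 *Wfdc2*+/+ replicate 1 or 2, and 1.63 and 3.11 without E18.5 *Wfdc2* GFP/GFP replicate 1 or 2.

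*Wfdc3* was low throughout and its genotype groups overlapped at both stages. Its reads at E18.5 were 78 and 51 in *Wfdc2*+/+, against 80 and 92 in *Wfdc2* GFP/GFP, and 276 and 53 against 106 and 84 at P1.5. Of the 8 libraries only P1.5 *Wfdc2*+/+ replicate 1 stood clearly apart, at 12.7 RPM where the others ran from 1.64 to 4.58. The log2 differences between genotypes were -0.7 at P1.5 and 0.43 at E18.5, with a standard error of 0.717. The first was 0.41 without P1.5 *Wfdc2*+/+ replicate 1 and -1.81 without P1.5 *Wfdc2*+/+ replicate 2, and the second was 0.71 and 0.16 without E18.5 *Wfdc2* GFP/GFP replicate 1 or 2.

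*Wfdc12*, *Wfdc15b* and *Wfdc8* had at most 25 reads in any library, and nearly all of them came from *Wfdc2*+/+ lungs. *Wfdc12* and *Wfdc15b*, which encode antibacterial WAP proteins, appeared mainly at P1.5. *Wfdc12* had 5 and 11 reads in P1.5 *Wfdc2*+/+ and 0 and 2 in P1.5 *Wfdc2* GFP/GFP, and 2, 1, 0 and 1 reads in the E18.5 libraries. Over both libraries it was, in RPM, 10.2-fold lower in P1.5 *Wfdc2* GFP/GFP than in P1.5 *Wfdc2*+/+, with a 95% exact interval from 2.39 to 91.3 that covers counting error only. Its fitted log2 difference of -2.81 depends on the 0.9 read entered for the library without one, and it was -1.41 and -0.3 with pseudocounts of 0.1 and 1 RPKM.
*Wfdc15b* had 11 and 13 reads in P1.5 *Wfdc2*+/+ and 1 and 0 in P1.5 *Wfdc2* GFP/GFP, which is 30.6-fold lower (interval 4.98 to 1257). For *Wfdc15b* and *Wfdc12* the P1.5 *Wfdc2* GFP/GFP group held fewer than 3 reads, the floor used below. These folds are therefore known only within their intervals. At E18.5 its reads were 0 and 5 in *Wfdc2*+/+, against 1 and 0 in *Wfdc2* GFP/GFP. For both genes the 2 groups of P1.5 did not overlap, and at E18.5 they did.
*Wfdc8*, whose protein also carries a Kunitz inhibitor domain, had the most reads of these 3 in *Wfdc2*+/+ lungs at E18.5. It had 8 and 13 reads in E18.5 *Wfdc2*+/+ against 3 and 0 in *Wfdc2* GFP/GFP, and 25 and 6 in P1.5 *Wfdc2*+/+ against 0 and 0 in *Wfdc2* GFP/GFP. Pooled, it was 7.09-fold lower in *Wfdc2* GFP/GFP at E18.5 (interval 2.12 to 37.1) and at least 13.2-fold lower at P1.5, against a floor of 3 reads over the group. The P1.5 bound rests mainly on *Wfdc2*+/+ replicate 1, at 1.15 RPM. With replicate 2 alone, at 0.308 RPM, it would be lower. A count of 0 in a library allows 3 reads, which is 0.103 to 0.13 RPM in the P1.5 *Wfdc2* GFP/GFP libraries.

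**Figure D2:**
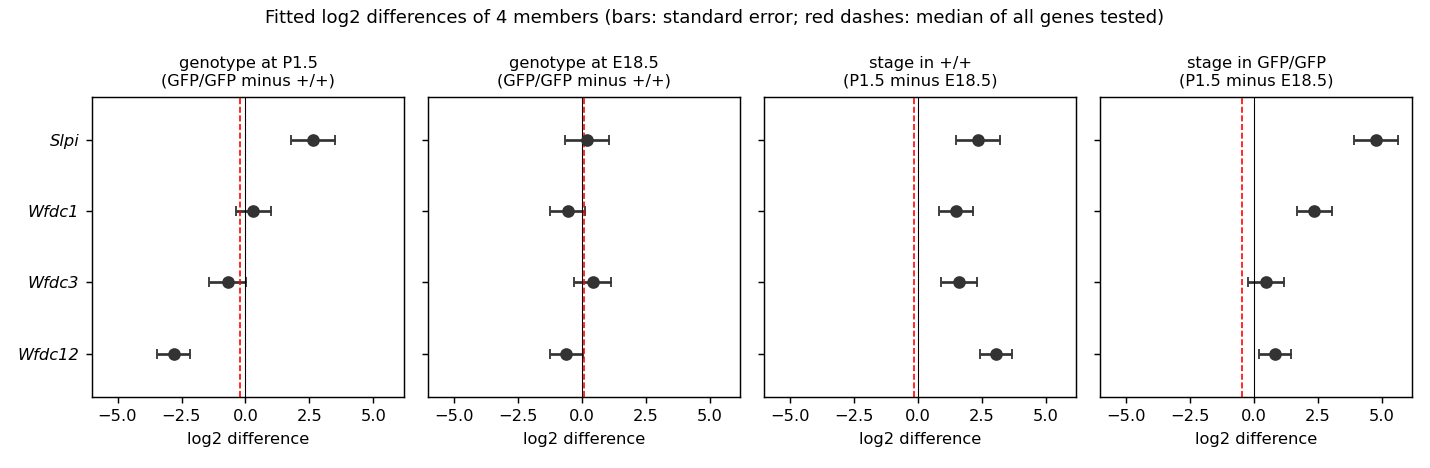
Fitted log2 differences of *Slpi*, *Wfdc1*, *Wfdc3* and *Wfdc12* in the 4 comparisons, with bars for the standard error and a red dashed line for the median of the 15627 genes tested. *Slpi* and *Wfdc12* lie on opposite sides of 0 in the comparison of genotypes at P1.5, at 2.64 and -2.81, the second of which became -0.3 with a pseudocount of 1 RPKM.

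Of the 7 members, 5 passed the filter on low values (0.05 RPKM or more on average), and *Wfdc8* and *Wfdc15b* did not. In the comparison of genotypes at P1.5, 1 of the 5 was past an adjusted p of 0.05 (limma), where 0.0128% of all 15627 genes tested were, and at E18.5 it was 1 of 5, against 0.0192%. That member was *Wfdc2*, the gene that was targeted. Its call was lost at both stages with median centring, quantile normalization, the replicate number as a block and limma voom, without any 1 of the 4 E18.5 libraries and without P1.5 *Wfdc2*+/+ replicate 1, and at E18.5 also without P1.5 *Wfdc2*+/+ replicate 2, while its log2 difference kept its sign. Both GFP/GFP libraries lay above both *Wfdc2*+/+ libraries in 1 of 5 members at P1.5 and below them in 2 of 5, against 12.6% and 26.9% of all genes tested. At E18.5 these counts were 0 and 1 of 5, against 26.5% and 9.46%. Between the stages, 0 of 5 members were called in *Wfdc2*+/+ lungs, where 0.0576% of all genes were (2 of the 5 had an unadjusted p under 0.05, and limma voom called no gene), and 1 of 5, *Slpi*, in *Wfdc2* GFP/GFP lungs, where 4.55% were, 252 genes higher and 459 lower (849 and 430 after centring each library on its median). The call of *Slpi* was lost with limma voom, without a filter, with the replicate number as a block, and without either E18.5 *Wfdc2*+/+ library, E18.5 *Wfdc2* GFP/GFP replicate 1 or either P1.5 *Wfdc2* GFP/GFP library. Both P1.5 libraries lay above both E18.5 libraries in 5 of 5 members in *Wfdc2*+/+ and in 3 of 5 in *Wfdc2* GFP/GFP, against 27.4% and 18.7% of all genes tested. One of these 3, *Wfdc12*, had 0 and 1 reads at E18.5 and 0 and 2 at P1.5 there, so that its order came from the value entered for a gene without reads. Over the whole table, in which many genes have no read, both GFP/GFP libraries lay below both *Wfdc2*+/+ libraries in 4 of the 7 members at P1.5 (*Wfdc2*, *Wfdc8*, *Wfdc12* and *Wfdc15b*), against 45.8% of all 25965 genes, and in 2 at E18.5 (*Wfdc2* and *Wfdc8*), against 8.16%. Between genotypes the median log2 difference of the 5 members was -0.7 at P1.5 and -0.55 at E18.5, beside -0.2 and 0.09 for all genes tested. These are the values of *Wfdc3* and *Wfdc1*, and each changed sign when 1 library was left out, as given above. Between the stages the median of the 5 members was 1.8 in *Wfdc2*+/+ and 2.13 in *Wfdc2* GFP/GFP, beside -0.15 and -0.46. Both values are those of *Wfdc2* itself. The first was 1.03 and 2.56 for that gene without P1.5 *Wfdc2*+/+ replicate 1 or 2. The second came from 0 and 1 reads at E18.5 and 12 and 0 at P1.5, and was 0.41 and 0.06 with pseudocounts of 0.1 and 1 RPKM. Centring each library on its median moved the median difference of all genes from -0.2 to 0.003 at P1.5 and from -0.46 to 0.213 between the stages in *Wfdc2* GFP/GFP. After it the difference of *Slpi* was 2.84 at P1.5 and 5.47 between the stages in *Wfdc2* GFP/GFP, and that of *Wfdc12* was -2.61 at P1.5. Since the members were chosen with these values known, nothing is read from the counts. The difference between the stages in the genotype difference was 2.44 for *Slpi* (standard error 1.21) and -2.22 for *Wfdc12* (standard error 0.892) on the log2 scale. When each library was left out in turn, these ran from 1.18 to 3.7 and from -2.87 to -1.57. The value of *Wfdc12* also depends on the 0.9 read entered for a library without one, which that range does not vary. No gene of the 15627 passed the test of this difference (0%, with 1599 at an unadjusted p under 0.05, and none with limma voom).

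Libraries stood apart in ways that moved with these values. Replicate 1 of P1.5 *Wfdc2*+/+ had the most *Wfdc2*, *Wfdc1*, *Wfdc3* and *Wfdc8*. It also had the lowest sum of fibroblast and smooth muscle markers (7 genes, led by *Col1a2*), at 790 RPM against 4181 in replicate 2 of the same group. *Col1a1*, *Col1a2*, *Acta2* and *Myh11* were each lowest there of the 8 libraries, while *Tagln*, *Pdgfra* and *Dcn* were each lower in at least 1 other library. The endothelial markers of replicate 1 (3 genes, led by *Pecam1*) were at 387 against 1168, and its pan-epithelial markers (5 genes, led by *Krt19*) at 2838 against 949. *Cdh1* of the pan-epithelial list went the other way, at 27.55 against 45.27 RPM per kb of exon. In P1.5 *Wfdc2* GFP/GFP the pan-epithelial markers were at 2266 and 2178, and 3 of the 5 (*Epcam*, *Krt8* and *Krt18*) had both GFP/GFP libraries above both *Wfdc2*+/+ libraries, against 12.6% of all genes tested, and 0 had both below, against 26.9%. The median log2 difference of the 5 was 0.56, beside -0.2 for all genes. Of these, 0 passed the test (limma, 0 at an unadjusted p under 0.05, and none with limma voom). In the E18.5 libraries their sums lay between 1257 and 1696. Replicate 2 of P1.5 *Wfdc2*+/+, which had the most *Wfdc12* and *Wfdc15b*, stood apart in 4 of 6 squamous genes. It held 930 reads of *Krt4*, 1092 of *Krt13* and 82 of *Krt6a*, where the other libraries held at most 114, 57 and 4, and 14 of *Sprr3*, where they held at most 1. *Sprr1a* and *Ivl* did not follow, with 12 reads each there and up to 100 and 62 in other P1.5 libraries. The 6 genes summed to 110 RPM against at most 7.64 elsewhere. P1.5 *Wfdc2*+/+ replicate 1 had 0 reads of *Krt6a* and *Sprr3*, 5 of *Wfdc12* and 11 of *Wfdc15b*. Replicate 1 of E18.5 *Wfdc2* GFP/GFP, which had the least *Slpi* and *Wfdc1* of the 8 libraries, also had the lowest sum of club cell markers (6 genes, led by *Scgb1a1*), at 840 RPM against 2597.6 to 3338.7 in the other E18.5 libraries. Its type II cell markers (5 genes, led by *Sftpc*) were at 8847.4 against 17643.9 to 22434.1, and its erythroid markers (4 genes, led by *Hbb-b1*) at 1971 against 5592.6 to 7220.7. Its fibroblast and smooth muscle markers, at 3738.3, were above the 2611.5 to 3100.8 of the other E18.5 libraries. Not every gene of these lists followed its sum. In RPM per kb of exon, *Cldn10* (31.81) and *Abca3* (46.8) were above E18.5 *Wfdc2*+/+ replicate 1, at 30.63 and 42.38. *Tagln*, at 35.05, was lower than in the other E18.5 libraries, and *Acta2*, at 109.1, was below E18.5 *Wfdc2* GFP/GFP replicate 2, at 149.6. The testis genes *Prm1* and *Tnp1* had reads in both E18.5 *Wfdc2*+/+ libraries, 6 and 9 of *Prm1* and 7 and 5 of *Tnp1*, and were at 0 in the other 6. The thyroid gene *Tg* had 104 and 152 reads in E18.5 *Wfdc2*+/+ against 12 and 10 in E18.5 *Wfdc2* GFP/GFP, and 21 to 50 in the P1.5 libraries. The 4 heart markers, led over all 8 libraries by *Myl7*, were at 463 RPM in E18.5 *Wfdc2* GFP/GFP replicate 2, the E18.5 library with the most *Slpi*, against 65 to 142 in the other E18.5 libraries. In that library *Nppa* led, with 4661 reads against 3663 of *Myl7*, and *Nppa* had at most 542 elsewhere. In a whole organ, fewer cells of a type and less RNA per cell cannot be told apart. The part of these markers in the members' differences was not tested.

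Transcript length also divided the libraries. Among the 13813 tested genes with a GENCODE exon length, those with exons over 4 kb had a median log2 deviation from the mean of the 8 libraries of -0.61 in P1.5 *Wfdc2*+/+ replicate 1 and 0.22 in replicate 2, and of -0.59 and -0.29 in P1.5 *Wfdc2* GFP/GFP. In E18.5 *Wfdc2* GFP/GFP replicate 1 it was 0.64, and genes with 1 to 2 kb of exon, the class that holds *Wfdc2*, *Slpi* and *Wfdc1*, were at -0.47 there. That class was at 0.13 and 0.17 in the P1.5 *Wfdc2*+/+ libraries and at 0.23 and 0.25 in the P1.5 *Wfdc2* GFP/GFP libraries, and at -0.25 and -0.17 in E18.5 *Wfdc2*+/+. The low values of *Slpi* and *Wfdc1* in E18.5 *Wfdc2* GFP/GFP replicate 1 went with this skew. They also went with the low sums of club, type II and erythroid markers in that library. The part of the skew or of the markers in these values was not tested.

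**Figure D3:**
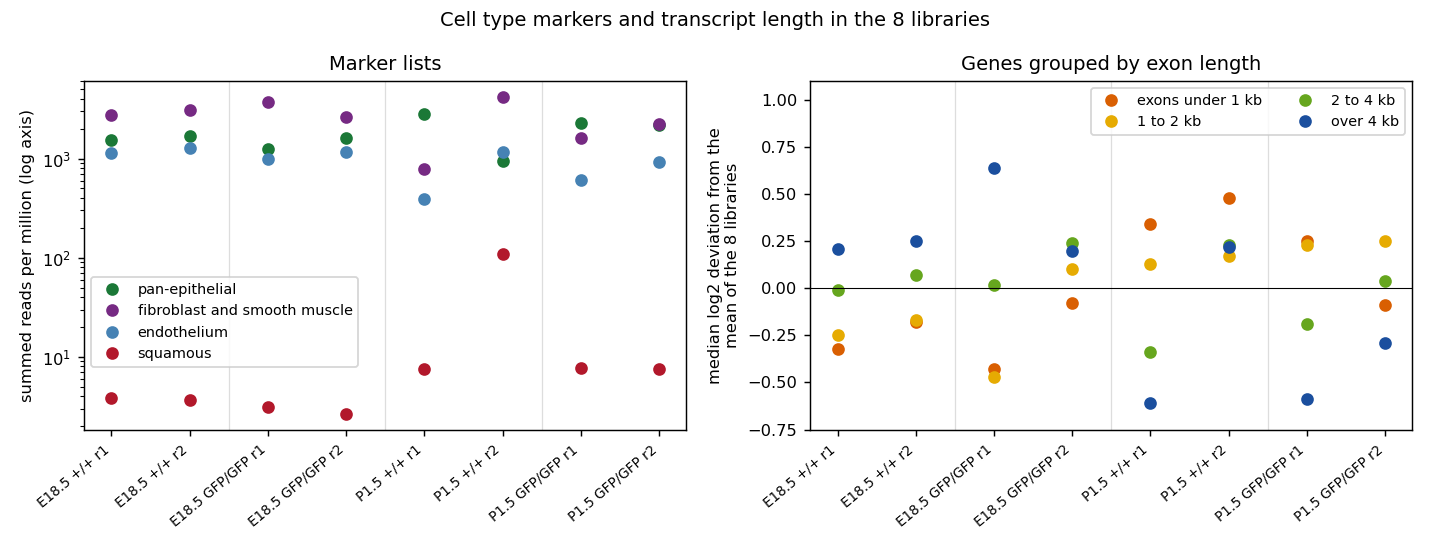
Left, summed RPM of 4 marker lists in each library on a log axis. Right, the median log2 deviation from the mean of the 8 libraries for tested genes grouped by exon length, with r1 and r2 for the replicates. P1.5 *Wfdc2*+/+ replicate 1 is lowest in the summed fibroblast and endothelial markers. Replicate 2 of that group is highest in the summed squamous markers, at 110 RPM, which *Krt4* and *Krt13* lead.

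At P1.5 *Slpi* was high in the same libraries as part of the markers of goblet and gland cells, of which 3 of 7 (*Lcn2*, *Bpifb1* and *Spdef*) had both GFP/GFP libraries above both *Wfdc2*+/+ libraries and 0 had both below, against 12.6% and 26.9% of all genes tested. Their median log2 difference was 0.75, beside -0.2 for all genes, and 0 passed the test (limma, 1 at an unadjusted p under 0.05, and none with limma voom). The 7 genes of that list (7 of 7 in the table, led by *Lcn2*, the gene of an antibacterial protein of epithelium and neutrophils) summed to 233 and 185 RPM for *Wfdc2*+/+, against 665 and 936 for *Wfdc2* GFP/GFP. None was at 0 in any library. Without *Lcn2* the sums were 106 and 114 RPM against 171 and 104, which overlap. The 6 club cell markers, led by *Scgb1a1*, also overlapped, at 18844.5 and 8808.9 RPM in *Wfdc2*+/+ against 11323.2 and 10525.2 in *Wfdc2* GFP/GFP. *Lcn2* alone had 2751 and 1376 reads against 11437 and 24334, a log2 difference of 2.76 (standard error 0.791) that did not pass the test (limma adjusted p = 0.324 over all genes). *Bpifb1*, the gene of a secreted airway protein, had 253 and 244 reads against 433 and 651 (log2 difference 0.75), and *Spdef*, a transcription factor of goblet cells, had 19 and 24 against 41 and 66 (log2 difference 0.94). The mucin gene *Muc5b* had 600 and 154 reads against 721 and 604, with overlapping RPM. Among the 6 club cell markers 1 lay above and 2 lay below in both GFP/GFP libraries, with a median log2 difference of -0.45. The one above was *Hp*, haptoglobin, with 18323 and 6376 reads against 33789 and 50321 (log2 difference 1.59, limma adjusted p = 0.438), and those below were *Cyp2f2* (-0.86, limma adjusted p = 0.51) and *Cldn10* (-0.94, limma adjusted p = 0.565). The 10 neutrophil markers, led by *S100a9*, overlapped between the genotypes, at 1875 and 672 RPM in *Wfdc2*+/+, against 1460 and 929 in *Wfdc2* GFP/GFP. Between the stages they moved with *Slpi*, from 92.2 and 88.9 to 1875 and 672 RPM in *Wfdc2*+/+ and from 57 and 63.7 to 1460 and 929 in *Wfdc2* GFP/GFP. There 1 of the 10 rose in *Wfdc2*+/+ and 7 in *Wfdc2* GFP/GFP (limma, adjusted p under 0.05), where 0.0576% of all genes were called in the first and 1.61% rose in the second. The call in *Wfdc2*+/+ was lost with limma voom and with the replicate number as a block. Those in *Wfdc2* GFP/GFP moved with single libraries, as did the count of the whole table given below. The medians of the 10 were 3.41 and 3.46 on the log2 scale. At an unadjusted p under 0.05 there were 10 in *Wfdc2*+/+ and 8 in *Wfdc2* GFP/GFP, and a difference between the genotypes in the stage effect was not shown for any of the 10 (lowest limma adjusted p = 0.588). *Ltf* is in this list and in that of goblet and gland cells. The part of these markers in the differences of *Slpi* was not tested.

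Of 16 other genes of the family in the table, 6 passed the filter, and for 0 of them did the genotypes differ at P1.5 or at E18.5 (limma, adjusted p under 0.05; 1 of the 6 had an unadjusted p under 0.05 at each stage, and limma voom called no gene of the table at either stage). Their median log2 difference between genotypes was 0.14 at P1.5 and -0.11 at E18.5, beside -0.2 and 0.09 for all genes tested. Between the stages in *Wfdc2* GFP/GFP lungs 3 of the 6 rose and none fell, where 1.61% of all genes tested rose and 2.94% fell. Since this list too was chosen with earlier results known, nothing is read from the count. The core was found at least 1 time in 13 of the 16 and 0 times in *Wfdc21*, *Wfikkn1* and *Wfikkn2*, in the transcripts and the spacing searched.
The first was *Wfdc21* (*1100001G20Rik* in the table, chromosome 11, 83746940 to 83752642). It had 28 and 23 reads at E18.5 and 298 and 348 at P1.5 in *Wfdc2* GFP/GFP, which is a log2 difference of 4.01 (standard error 0.538, limma adjusted p = 0.021). In *Wfdc2*+/+ it had 25 and 32 reads at E18.5 and 403 and 118 at P1.5, a log2 difference of 3.62 that did not pass the test (limma adjusted p = 0.0707), and a difference between the genotypes in this stage effect was not shown (log2 0.39, limma adjusted p = 0.873).
*Wfdc17* (*Gm11428* in the table, chromosome 11, 83703991 to 83706268), known from activated macrophages, followed with 4 and 22 reads at E18.5 and 272 and 488 at P1.5 in *Wfdc2* GFP/GFP. Its log2 difference there was 5.62 (standard error 0.997, limma adjusted p = 0.039). In *Wfdc2*+/+ it had 34 and 40 reads at E18.5 and 160 and 27 at P1.5. Of 8 macrophage markers, 5 had both P1.5 libraries above both E18.5 libraries in *Wfdc2* GFP/GFP and 1 had both below. Of all 15627 genes tested, 2928 lay above and 7581 below. The median log2 difference of the 8 was 1.37 there and 1.39 in *Wfdc2*+/+. Their part in the change of *Wfdc17* was not tested.
*Wfikkn1* (chromosome 17, 25877630 to 25880305), a secreted binder of growth factors of the TGF-beta family, had 30 and 18 reads at E18.5 and 213 and 122 at P1.5 in *Wfdc2* GFP/GFP (log2 difference 3.14, standard error 0.489, limma adjusted p = 0.032). In *Wfdc2*+/+ it had 9 and 7 reads at E18.5 and 41 and 23 at P1.5, a log2 difference of 2.62 that did not pass the test (limma adjusted p = 0.104). Its GFP/GFP libraries lay above the *Wfdc2*+/+ libraries at both stages, by 2.05 at P1.5 (limma adjusted p = 0.279) and 1.54 at E18.5 (limma adjusted p = 0.802) on the log2 scale. It overlaps *0610011F06Rik* on the opposite strand along 2676 bp, so its reads may be shared. With limma voom on the reads recovered from the values, these 3 adjusted p-values were 0.0513, 0.0518 and 0.0518, above the threshold. The number of genes of the whole table called in this comparison moved with single libraries, to 0 without P1.5 *Wfdc2* GFP/GFP replicate 1 or E18.5 *Wfdc2* GFP/GFP replicate 1, to 1 without P1.5 *Wfdc2* GFP/GFP replicate 2 and to 2449 without E18.5 *Wfdc2* GFP/GFP replicate 2. The log2 differences themselves ran from 3.95 to 4.06 for *Wfdc21*, from 4.22 to 7.02 for *Wfdc17* and from 2.57 to 3.71 for *Wfikkn1* when each library was left out in turn.
The remaining 3 tested genes, *Wfdc6a*, *Wfdc13* and *Wfikkn2*, had between 0 and 42 reads in any library and passed no test. Of the 10 below the filter, *Wap*, *Wfdc11* and *Wfdc16* had no read in any library, *Wfdc18* (*Expi*) had 4 and 2 reads in E18.5 *Wfdc2*+/+ alone, and *Eppin* (*Spinlw1*) had 11 reads in P1.5 *Wfdc2*+/+ replicate 1 and 2 in E18.5 *Wfdc2* GFP/GFP replicate 1.

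The genes near *Wfdc2* were described as well, because the GFP allele changed this locus. Within 500 kb of *Wfdc2* the table holds 59 other genes, 15 of them with a WAP domain, and 35 passed the filter, 3 of them members (*Slpi*, *Wfdc3* and *Wfdc12*). Of the other 32, 0 were called between genotypes at P1.5 (lowest limma adjusted p = 0.318, with 3 genes at an unadjusted p under 0.05) and 0 at E18.5 (lowest limma adjusted p = 0.582, with 4 genes at an unadjusted p under 0.05), and limma voom called none. Their median log2 difference was 0.22 at P1.5 and 0.32 at E18.5, beside -0.2 and 0.09 for all genes tested. At P1.5, 8 of the 32 had both GFP/GFP libraries above both *Wfdc2*+/+ libraries and 7 had both below, against the 12.6% and 26.9% of all genes given above, and at E18.5 14 were above and 2 below, against 26.5% and 9.46%. The nearest tested genes on either side were *Gm14317*, 2.7 kb away, with a log2 difference of 0.13 at P1.5 and 1.71 at E18.5, and *Wfdc6a*, 11 kb away, at -1.34 and -0.06. *Slpi*, 173.3 kb away, had the highest P1.5 value of the 35 and *Wfdc12*, 371.8 kb away, the lowest, and both were chosen with their values known.

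**Figure D4:**
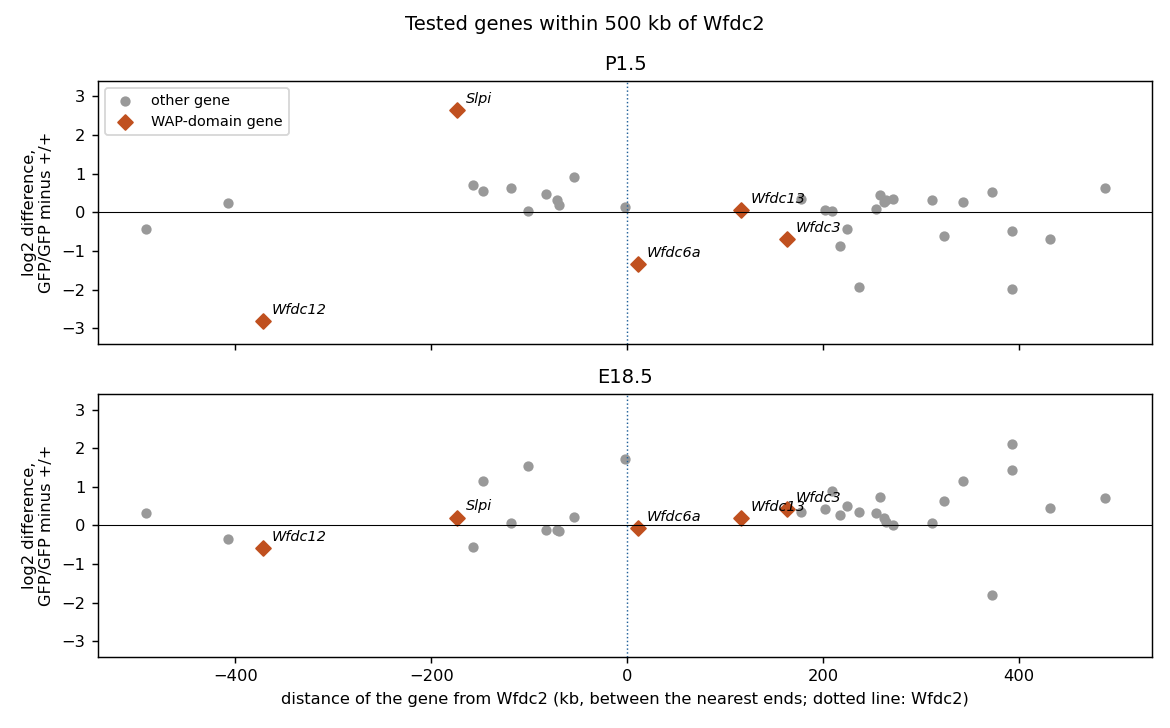
Log2 difference between genotypes of the 35 tested genes within 500 kb of *Wfdc2*, by distance in kb from *Wfdc2*, at P1.5 (top) and E18.5 (bottom), with diamonds for WAP-domain genes. *Slpi* at 2.64 and *Wfdc12* at -2.81 are the extremes at P1.5, and at E18.5 both lie within 0.6 of 0.

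Proteases that WAP proteins can meet in the lung were then taken by class. These lists too were chosen with earlier results known, and nothing is read from their counts. Of the 4 neutrophil serine proteases listed, which include the known *Slpi* targets elastase and cathepsin G, 3 passed the filter and 0 were called in any comparison (limma; 1 of 3 at an unadjusted p under 0.05 between genotypes at P1.5 and 2 of 3 at E18.5). *Prtn3*, proteinase 3, had 23 and 30 reads in E18.5 *Wfdc2*+/+ and 74 and 54 in *Wfdc2* GFP/GFP, and 59 and 24 against 129 and 129 at P1.5. The GFP/GFP libraries lay above the *Wfdc2*+/+ libraries at both stages, and the difference at P1.5 was 1.44 on the log2 scale (standard error 0.494, limma adjusted p = 0.361). *Elane*, neutrophil elastase, had 9 and 0 reads against 7 and 3 at P1.5, and no difference was detectable at this depth. *Ctsg*, cathepsin G, had 10 and 9 reads against 5 and 8.

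Of 5 mast cell proteases tested, 2 rose between the stages in *Wfdc2* GFP/GFP lungs, where 1.61% of all genes tested did, and 0 passed the test in *Wfdc2*+/+ lungs (limma, 2 at an unadjusted p under 0.05, and none with limma voom). In both genotypes all 5 had both P1.5 libraries above both E18.5 libraries, against 27.4% of all genes in *Wfdc2*+/+ and 18.7% in *Wfdc2* GFP/GFP, with medians of 2.08 and 2.74 on the log2 scale. A difference between the genotypes in the stage effect was not shown for any of the 5 (lowest limma adjusted p = 0.575). In *Wfdc2* GFP/GFP, *Tpsb2*, a tryptase, had 102 and 193 reads at E18.5 and 562 and 968 at P1.5 (log2 difference 2.74, standard error 0.498, limma adjusted p = 0.0398), and *Mcpt4*, a chymase, had 5 and 16 against 132 and 500 (log2 difference 5.19, standard error 1.13, limma adjusted p = 0.0482). With limma voom these were 0.0518 and 0.0584, above the threshold, and both calls were lost without P1.5 *Wfdc2* GFP/GFP replicate 1 or 2 or E18.5 *Wfdc2* GFP/GFP replicate 1, where no gene of the table was called higher. When each library was left out in turn, the log2 difference ran from 2.1 to 3.37 for *Tpsb2* and from 4.17 to 6.2 for *Mcpt4*. Between genotypes at P1.5 their groups overlapped, and 0 of the 5 were called (limma, 0 at an unadjusted p under 0.05).

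Epithelial serine proteases showed 1 call, where 1.61% of all genes tested rose between the stages in *Wfdc2* GFP/GFP lungs. Of 14 genes, 11 were tested, and *Prss22*, tryptase epsilon of the airway, rose between the stages in *Wfdc2* GFP/GFP lungs from 12 and 13 to 70 and 103 reads (log2 difference 3.11, standard error 0.619, limma adjusted p = 0.0445, and 0.0523 with limma voom). In *Wfdc2*+/+ it had 4 and 10 reads at E18.5 and 34 and 14 at P1.5. A difference between the genotypes in the stage effect was not shown for any of the 11 (lowest limma adjusted p = 0.271). Between genotypes at P1.5, the GFP/GFP libraries exceeded both *Wfdc2*+/+ libraries in 6 of the 11 and lay below both in none, against 12.6% and 26.9% of all genes tested, with a median log2 difference of 0.49 beside -0.2 for all genes, and 0 were called (limma, 3 at an unadjusted p under 0.05). *Tmprss4*, a membrane serine protease, had 244 and 262 reads in P1.5 *Wfdc2*+/+ and 645 and 1237 in *Wfdc2* GFP/GFP (log2 difference 1.48, standard error 0.603, limma adjusted p = 0.437). *Prss8*, prostasin, which activates the epithelial sodium channel, had 6539 and 2211 against 3067 and 3668 reads, with overlapping groups. A separate list held 4 proteases whose protein was studied alongside the RNA. Of these, 3 were tested, and 1, *Mmp9*, a gelatinase, rose, beside the same 1.61%, between the stages in *Wfdc2* GFP/GFP lungs from 21 and 36 to 332 and 439 reads (log2 difference 4.14, standard error 0.475, limma adjusted p = 0.0189). In *Wfdc2*+/+ it had 91 and 99 reads at E18.5 and 187 and 229 at P1.5, a log2 difference of 1.8 that limma did not call. A difference between the genotypes in this stage effect was not shown (limma adjusted p = 0.3). Between genotypes at P1.5 the log2 difference of *Mmp9* was 0.54 (limma adjusted p = 0.729). Of the 10 neutrophil markers given beside *Slpi*, 7 rose between the stages in *Wfdc2* GFP/GFP lungs too, and their part in the change of *Mmp9* and of the other proteases was not tested. The call of *Mmp9* held with limma voom (limma voom adjusted p = 0.0404). Those of *Prss22* and *Mmp9* were both lost without P1.5 *Wfdc2* GFP/GFP replicate 1 or 2 or E18.5 *Wfdc2* GFP/GFP replicate 1, and their log2 differences between the stages ran from 2.88 to 3.34 and from 3.57 to 4.7 when each library was left out in turn.

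The genes most like each tested member were taken by the Pearson correlation of log2 RPKM over the 8 libraries, which share their groups and their composition, so that the values are descriptions. For *Slpi* these were *Ppie*, *Fis1*, *Atp5h*, *Nsmce1* and *Hint1*, with r between 0.99 and 0.995, and for *Wfdc1* they were *Gpx4*, *Endog*, *Drap1*, *Tspan11* and *Atf3*, with r between 0.992 and 0.993. Several of these, such as *Atp5h*, a subunit of ATP synthase, and *Gpx4*, a glutathione peroxidase, are genes of every cell. *Slpi* and *Wfdc1* had r = 0.907 with each other. For *Wfdc3* the leading genes were *Rpl37*, *Ms4a8a*, *Cd320*, *Zfp771* and *Nmb* (r from 0.968 to 0.985), for *Wfdc2* they were *B430010I23Rik*, *Rpl31-ps20*, *Pou3f1*, *Rpl21-ps5* and *Smpd3* (0.879 to 0.918), and for *Wfdc12* they were *Upk1b*, *4930579G22Rik*, *Upk3b*, *C2.2* and *Fabp1* (0.95 to 0.966). *Upk1b* and *Upk3b* encode uroplakins, membrane proteins of urothelium and mesothelium. *Wfdc12* rests on 22 reads in all, so its values are the least certain.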

How the data were processed

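Whole-lung RNA of 8 libraries, 2 for each stage and genotype, was purified with Isogen and made into libraries with the NEBNext Ultra Directional kit. The study's methods name 2 Illumina instruments, and which of them sequenced which library is not given in the sources used here, so that a difference between instruments was not tested. The submitters' notes name CASAVA 1.8, Trim Galore 0.4.0, TopHat2 2.1.1 and mm10, and the study's methods add NGS QC Toolkit 2.3.1 and SeqMonk. The authors deposited log2 RPKM for each gene and library, with the length taken as the whole span, and a gene without reads entered as 0.9 read. Whole reads were recovered from the values (99.66% to 99.91% of a library's values above 0 lay within 0.02 of a whole number). No further scaling between libraries was applied to them.

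The 15627 of 25965 genes that averaged 0.05 RPKM or more were fitted with limma 3.58.1 (R 4.3.3, eBayes with trend) on the deposited values, with 1 mean for each group, 4 residual degrees of freedom and Benjamini-Hochberg adjustment over all genes tested, at a threshold of 0.05. RPM used the recovered reads and totals, and counting intervals are exact binomial (Clopper-Pearson) ones at 95% (scipy). Cores were searched in GENCODE M21 coding sequences as 8 cysteine codons with 3 to 14 codons between the first and second cysteines, 2 to 14 between the second and the third, then 5, 4 to 8, 0, 3 to 5, and 3 to 6. In simulated counts with 200 genes changed by 3 on the log2 scale at P1.5, 183 and 176 were recovered at dispersions of 0.01 and 0.1, with 23 and 12 false calls among 15601 and 15570 genes. The simulated noise was independent around a common mean of each gene, without the differences in markers and transcript length between the real libraries. It checks that the fit runs and does not give the share of real changes that would be found.

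The members and all lists were chosen with earlier results of these data known, and the member with its values, the listed genes and the 5 most like genes of each tested member are the genes named. Replicate numbers were not used for pairing, since the labels do not say what they mark, although they went with *Xist* and *Ddx3y* reads. No library was left out. Alternatives were 2 pseudocounts, no filter and a stricter one, centring, quantile normalization, limma voom on recovered reads, a replicate block and leaving out each library. The exon-length classes of genes were chosen after seeing the data.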

Additional observations from a re-analysis of the deposited data

Results flagged for a closer look

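Among 62 tested genes named here (members, other WAP-domain genes, proteases and neighbours of *Wfdc2*), 10 had both *Wfdc2* GFP/GFP libraries on one side of both *Wfdc2*+/+ libraries at P1.5 and on the other side at E18.5, where 1550 of all 15627 genes tested did (9.92%). None of the 7 members was among them. In each of these genes the interaction did not pass the test, so a difference between the stages was not shown. The log2 differences at P1.5 and E18.5 were 2.13 and -1.99 for *Wfdc17* (*Gm11428*; interaction 4.11, limma adjusted p = 0.37), -0.93 and 1.64 for *Ctsg* (limma adjusted p = 0.436), 1.83 and -1.15 for *Klk10* (0.271), and 0.54 and -1.8 for *Mmp9* (0.3). Among the neighbours they were -0.43 and 0.31 for *Tomm34*, 0.72 and -0.55 for *Matn4*, -0.44 and 0.51 for *Acot8*, -1.94 and 0.36 for *Zswim3*, -0.61 and 0.63 for *Zfp335* and -0.69 and 0.45 for *Ncoa5*, with interaction adjusted p-values (limma) from 0.365 to 0.653.

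Between the stages, 3 of the 62 genes had both P1.5 libraries on opposite sides of both E18.5 libraries in *Wfdc2*+/+ and in *Wfdc2* GFP/GFP, where 883 of all genes tested did (5.65%). The log2 differences were -0.31 in *Wfdc2*+/+ and 2.12 in *Wfdc2* GFP/GFP for *Tmprss4* (limma adjusted p = 0.383 for the interaction), 0.71 and -0.44 for *Snx21* (0.49), and 0.72 and -0.52 for *Zfp335* (0.379).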

How the results depend on the processing

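Counts of genes called in the whole table moved with nearly every choice, and the cause was not tested. Between genotypes at P1.5 the count of 2 became 11 with a pseudocount of 0.1 RPKM, 5 with 1 RPKM, 21 without a filter, and 0 with median centring, quantile normalization or limma voom. At E18.5 the count of 3 became 6 with a pseudocount of 0.1 RPKM, 22 without a filter, 1 with a mean of at least 0.5 RPKM, and 0 with median centring, quantile normalization or limma voom. Between the stages in *Wfdc2*+/+ the count of 9 became 16 and 17 with pseudocounts of 0.1 and 1 RPKM, 35 without a filter, 52 with the stricter one, 5 with median centring, 49 with quantile normalization and 0 with limma voom. In *Wfdc2* GFP/GFP the count of 711 became 237 with a pseudocount of 1 RPKM, 349 without a filter, 1279 with median centring and 129 with limma voom. Leaving out each library in turn gave 0 to 24 genes at P1.5 (24 without P1.5 *Wfdc2*+/+ replicate 2, 15 without replicate 1), 0 to 1 at E18.5, 0 to 2166 between the stages in *Wfdc2*+/+ (2166 without P1.5 replicate 2, 8 without replicate 1), 0 to 4874 in *Wfdc2* GFP/GFP (4874 and 4863 without P1.5 *Wfdc2*+/+ replicates 1 and 2, 2449 without E18.5 GFP/GFP replicate 2, 82 and 81 without E18.5 *Wfdc2*+/+ replicates 1 and 2, 1 without P1.5 GFP/GFP replicate 2, 0 without E18.5 GFP/GFP replicate 1 or P1.5 GFP/GFP replicate 1) and 0 to 2 for the interaction (2 without E18.5 *Wfdc2* GFP/GFP replicate 2 or P1.5 *Wfdc2*+/+ replicate 1). With a library left out, its partner was assumed to vary like the other groups.

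With the replicate number as a block the counts were 0 at P1.5, 0 at E18.5, 0 between the stages in *Wfdc2*+/+, 125 in *Wfdc2* GFP/GFP and 0 for the interaction. The correlation of same-numbered libraries in their deviations from the group mean was 0.23 at E18.5 and 0.21 at P1.5 between the genotypes and -0.02 and -0.01 between the stages. The study describes its *Wfdc2*+/+ samples as littermate controls. The labels tie no number to a litter, batch or day, so same-numbered libraries were not treated as pairs. Same-numbered libraries did share *Xist* reads (replicate 1) or *Ddx3y* reads (replicate 2).

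Of 480 values of member differences under these alternatives, 419 kept their direction and side of the threshold or moved by less than the spread, 34 moved by more, 27 lost a call and 0 reversed one. For an uncalled difference between genotypes or between stages, leaving out a library cannot move the value by more than this spread. The filters and the replicate block leave such a value unchanged. Many of the 419 were therefore fixed in advance, and their number is no measure of stability. The sign changes of *Wfdc3* and *Wfdc1* at P1.5 given above are among them. The difference of *Wfdc2* between genotypes kept its sign in all alternatives run. That of *Slpi* at P1.5 ran from 1.38 to 3.9 when libraries were left out. That of *Wfdc12* at P1.5 was -1.41 and -0.3 with pseudocounts of 0.1 and 1 RPKM. Setting levels per kilobase of exon moved 2 members in E18.5 *Wfdc2*+/+, 4 in E18.5 *Wfdc2* GFP/GFP, 2 in P1.5 *Wfdc2*+/+ and 0 in P1.5 *Wfdc2* GFP/GFP to another place in the order, all of them among genes below 0.3 RPM per kb except *Wfdc12* and *Wfdc15b* in P1.5 *Wfdc2*+/+. Depth limits *Wfdc8*, *Wfdc12* and *Wfdc15b* most, since they rest on 55, 22 and 31 reads in all.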
